A study of Mus musculus with 4 samples.

Results

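The regions described here were 626 of the 7905 peaks in the list made with an antibody against phosphorylated Smad3 (pSmad3). They were chosen by their maximum signal, by having no overlap with the other antibody's peaks and by position. A peak had to lie on chromosomes 1 to 19 with a maximum signal of at most 26, 2 times the list median of 13. It shared no base with a peak of the list for phosphorylated Smad1/5 (pSmad1/5), and its midpoint fell within 1 kb of an end of a protein-coding or lncRNA gene. Of the 7785 peaks on these chromosomes, 7394 were under the limit on the maximum, 5985 of those had no pSmad1/5 overlap and 626 of those were at a gene end. The values that selected them are given as description.

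Both antibodies were used on 1 tissue, the molar tooth germ at E13.5 (embryonic day) from CD1 mouse embryos of wild type, with no other genotype or treatment. CUT&RUN releases the chromatin around an antibody-bound protein with a tethered nuclease and sequences the fragments. Here the digestion took 30 min and reads were paired-end with 100 bp. There were 2 libraries for each antibody but the authors deposited 1 list for each, so no value had a spread between libraries and no difference between antibodies was tested. Peak lists hold no expression values with which the tissue could be checked. Of the lists of marker genes for other cells, macrophage and blood genes had a member at 2 of 20 genes, neural and Schwann genes at 1 of 19, skeletal muscle genes at 1 of 16 and endothelial genes at 0 of 22. The intervals of these shares all held the 2.35% found over all protein-coding genes, so the counts say nothing on the makeup of the tissue.

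Smad3 is one of the proteins that carry TGF-beta and activin signals to the nucleus. Receptors phosphorylate it at the cell surface, it joins Smad4, and the complex binds short DNA elements, usually with other transcription factors that set where it goes. Smad1 and Smad5 do the same for BMP receptors. In the tooth germ both branches act in the epithelium and the mesenchyme that condenses under it. A gene end here is either the transcription start, where the promoter lies, or the 3' end, where transcription terminates.

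The promoters inside these peaks are shown first because the longest Smad element searched, GTCTAGAC, was found in 5 of them. This palindrome joins a pair of GTCT cores and does not itself contain the 5-base element CAGAC. Each line gives 100 bases from the RefSeq promoter table (GRCm38.p6, the assembly of mm10), 5' to 3' on the strand of the gene, with the palindrome in capitals.
Pnmal2 (chr7:16944594-16944693, plus strand): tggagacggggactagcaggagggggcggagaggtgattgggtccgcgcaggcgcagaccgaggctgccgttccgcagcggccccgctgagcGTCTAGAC
Smad6 (chr9:64022056-64022155, minus strand): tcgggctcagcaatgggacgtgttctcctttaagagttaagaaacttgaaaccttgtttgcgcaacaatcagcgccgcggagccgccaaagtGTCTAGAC
Cchcr1 (chr17:35517128-35517227, plus strand): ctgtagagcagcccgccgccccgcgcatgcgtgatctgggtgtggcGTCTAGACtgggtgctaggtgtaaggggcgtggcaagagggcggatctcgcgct
Gm33483 (chr12:8879180-8879279, plus strand): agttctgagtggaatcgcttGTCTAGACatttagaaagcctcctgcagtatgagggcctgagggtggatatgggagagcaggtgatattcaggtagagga
Gm34059 (chr14:26324827-26324926, minus strand): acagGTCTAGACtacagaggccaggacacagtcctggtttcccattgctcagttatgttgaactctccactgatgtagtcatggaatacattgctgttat

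The first base of the palindrome lay at -4 from the listed start of Smad6, at +5 in Pnmal2, at -79 in Cchcr1, at -230 in Gm33483 and at -246 in Gm34059. Smad6 encodes an inhibitory Smad that limits BMP signalling, and its palindrome spans the listed start itself. The peak at Smad6 had a total signal of 28276, near the middle of the pSmad3 list (percentile 49.1). The peak at Pnmal2 reached 49718 (percentile 83) and the one at Cchcr1 53412 (percentile 85.4). The peaks that held the promoters of the remaining pair, both lncRNA genes, had totals of 24918 and 21642. For Gm33483 the gene end nearest the peak's midpoint belonged to 9930038B18Rik, and the Gm33483 start was over 1 kb from that midpoint. A palindrome in a promoter therefore stood beside totals from near the bottom to the upper part of the list. Total signal is the authors' sum of coverage over a call, so it grows with the length of the call as well as its height. A call can reach beyond the peak as deposited, so a total is not the signal at the gene end alone.

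For comparison, 3 promoters of members with other features are shown: Smad3 itself, which encodes the protein that the antibody recognises, and Slc13a3 and Spib, the members with the highest totals. Capitals mark CAGAC where the stretch holds it.
Smad3 (chr9:63757995-63758094, minus strand): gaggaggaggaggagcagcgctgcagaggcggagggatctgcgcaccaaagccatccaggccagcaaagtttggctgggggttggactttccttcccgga
Slc13a3 (chr2:165473231-165473330, minus strand): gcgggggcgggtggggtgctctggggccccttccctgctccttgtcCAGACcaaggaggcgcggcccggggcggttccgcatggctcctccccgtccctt
Spib (chr7:44532129-44532228, minus strand): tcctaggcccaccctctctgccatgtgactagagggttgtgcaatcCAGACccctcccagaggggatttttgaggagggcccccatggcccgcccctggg

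The 3 sequences differ in base composition. The 300 bp promoter windows that they come from held 67.7% G and C in Smad3, 69.3% in Slc13a3 and 58% in Spib. The ratio of observed to expected CpG was 0.753 in Smad3 and 0.615 in Slc13a3 but 0.0797 in Spib, which encodes an ETS-family transcription factor of lymphoid cells.

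At gene ends the pSmad3-only peaks were broad and modest. Their median width was 4589 bp (interquartile range 3020 to 5719 bp) and they covered 2.78 Mb in all. The narrowest was 9 bp and the widest 12683 bp, and 25 were under 500 bp. Total signal had a median of 26723 (23328 to 33187) and ran from 20992 to 103204. The median member stood at percentile 41.9 of the whole list, and 369 of the 626 were below the list median. Only 12 exceeded percentile 90. The maximum signal, the highest coverage in the call, had a median of 13 (12 to 15) and was at most 15 in 542 members (86.6%).

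Peaks at gene ends that did overlap a pSmad1/5 peak, of which 146 met the same limit on the maximum, were wider and ranked higher. Their median width was 5342 bp and their median percentile 66.8. The pSmad3-only peaks inside genes (3469) and between genes (1890) were close to the members, with median percentiles of 44.9 and 41.7 and median widths of 4443 and 4549 bp. Because a wider peak has more bases that can meet another peak, width and overlap cannot be told apart in this contrast.

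**Figure D1:**
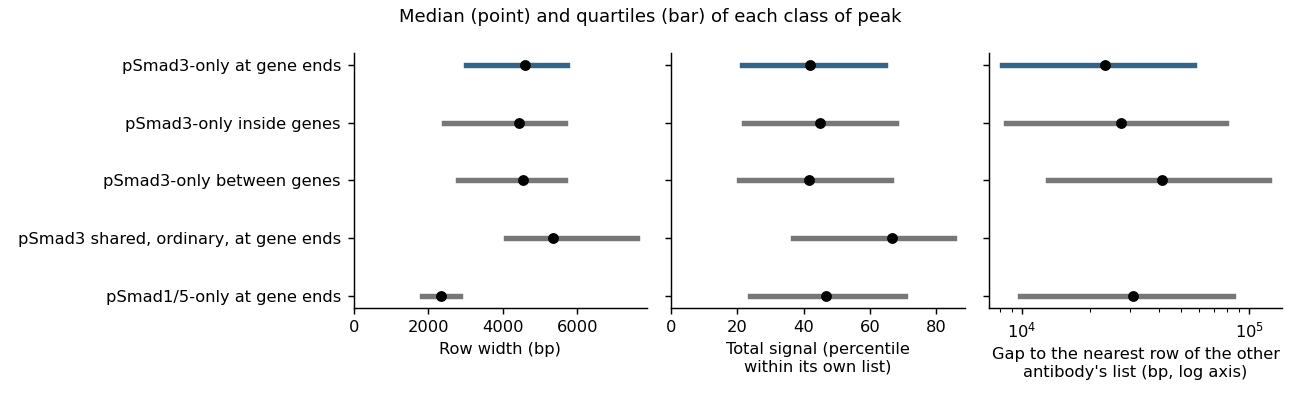
Each row is a class of peak. The panels show the median (point) and quartiles (bar) of peak width in bp, of the percentile of total signal within the class's own list, and of the gap in bp (log axis) to the nearest peak of the other antibody. The gap is not drawn for shared peaks, which overlap by definition. Members have a median width of 4589 bp and a median percentile of 41.9, against 5342 bp and 66.8 for shared peaks at gene ends.

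Although no member overlapped a pSmad1/5 peak, many had one nearby. The median gap was 23181 bp (8168 to 57248 bp). A pSmad1/5 peak lay under 10 kb away for 184 members (29.4%, exact 95% Clopper-Pearson interval 25.8 to 33.1) and under 5 kb away for 108. For 96 members the gap exceeded 100 kb. The gap was under 10 kb for 28.1% of the pSmad3-only peaks inside genes (26.6 to 29.6) and for 20.7% of those between genes (18.9 to 22.6). These intervals cover counting error only.

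The members fell at starts and at 3' ends about equally. The strand, needed to tell them apart, was known for 492 of the 626. Genes on chromosome 18, with 10 members, entered no split by strand and no promoter count. Of the 492, 250 (50.8%, 46.3 to 55.3) were nearer to a start and 242 to a 3' end. In 45 of the 242 (18.6%, 13.9 to 24.1) the peak also held a listed promoter start, so the split does not separate peaks with and without a promoter. Counted from the genes, a member's midpoint was within 1 kb of 294 of 25748 starts (1.14%) and of 276 of 25748 3' ends (1.07%). The split was alike for both kinds of gene, with 51.5% at starts for protein-coding genes (46 to 57.1, 324 peaks) and 49.4% for lncRNA genes (41.6 to 57.2, 168 peaks). Median totals were 26059 at starts and 27319 at 3' ends, and median widths were 4469 and 4589 bp.

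The same share was computed for the other classes. It was 46.4% (44.5 to 48.3) for pSmad3-only peaks inside genes, 46.2% (43.7 to 48.7) for those between genes, 40.8% (32.0 to 50.2, 120 peaks) for shared peaks at gene ends and 53.7% (50 to 57.4, 721 peaks) for pSmad1/5-only peaks at gene ends. The interval of the members overlapped those of all 4 other classes.

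**Figure D2:**
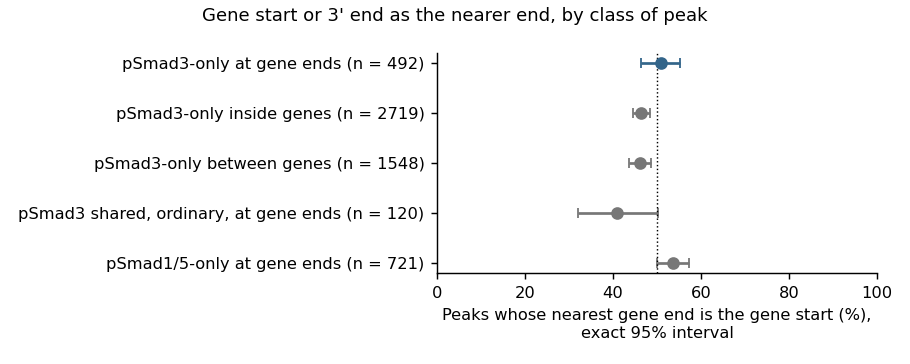
The x axis is the percentage of peaks whose nearest gene end is the start, among peaks at genes of known strand, with exact 95% intervals. The dotted line marks 50%. Members sit at 50.8% and the other classes between 40.8% and 53.7%.

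Around starts, midpoints lay on both sides. Of the 250 start-proximal members, 142 (56.8%, 50.4 to 63.0) had the midpoint downstream, inside the gene. The position of maximum signal is a second readout that the choice of members did not use directly. Taken as the midpoint of the stretch of highest signal, it was downstream in 129 (51.6%, 45.2 to 57.9). It fell within 1 kb of the start in 121 (48.4%) and within 250 bp in 29 (11.6%). A long stretch could hold the start and still count as beyond 1 kb, as at Spib (-5406.5 bp). At 3' ends the maximum was within 1 kb in 87 of 242 members (36.0%, 29.9 to 42.3). For 477 members (76.2%) the stretch of highest signal was part of the peak as deposited, and for the rest it lay in another stretch of the same call. The peaks covered their gene end in 573 cases (91.5%), which follows in large part from their width. They covered the whole nearest gene in 60 (9.58%).

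**Figure D3:**
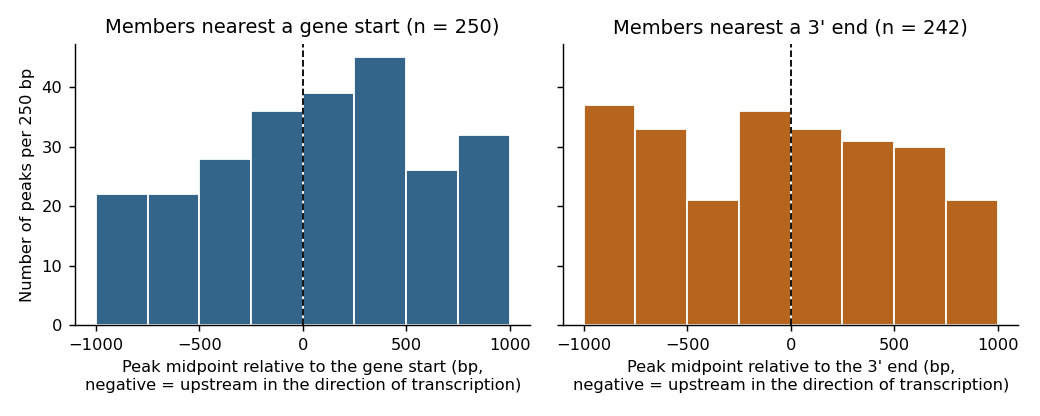
Number of member midpoints in bins of 250 bp by distance from the nearest gene start (left) or 3' end (right), with negative values upstream in the direction of transcription. Midpoints spread over the whole window, from 22 to 45 per bin at starts and from 21 to 37 per bin at 3' ends.

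The nearest gene was protein-coding for 411 members (65.7%, 61.8 to 69.4) and a lncRNA gene for 215. Together, 712 genes had an end within 1 kb of a member. These were 484 of 20560 protein-coding genes (2.35%) and 228 of 12324 lncRNA genes (1.85%). The 484 protein-coding genes had a median length of 13416 bp, against 17574 bp for all protein-coding genes. Another pSmad3 peak lay in the gene or within 10 kb of it for 191 (39.5%), and a pSmad1/5 peak for 216 (44.6%). Over all protein-coding genes, 25.5% had a pSmad3 peak of any kind there. The share with a pSmad1/5 peak over all genes was not computed, so neither count is read as a trait of these genes.

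Between chromosomes the share of genes with a member ran from 1.03% on chromosome 6 to 3.67% on chromosome 11, which held 72 of the peaks. Neighbouring members under 100 kb apart made 65 pairs.

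Members near the starts of more than 1 gene numbered 30 (4.79%, 3.26 to 6.77), and in 29 of these the starts were on opposite strands. The starts were within 300 bp of each other in 23 of the 30. Only starts of known strand could be counted, so the 30 are a lower limit. Such pairs were not counted over all gene starts, so the 30 and the 29 are not read as particular to these peaks. The strongest by total signal was at Med9 and its antisense gene Med9os, whose starts are 67 bp apart (total 56989). Med9 encodes a subunit of the Mediator complex. Next came Tcf19 and Cchcr1, 212 bp apart (53412), the pair that includes a palindrome promoter. Rfc5, which encodes a subunit of the clamp loader of DNA replication, shared a peak of 50271 with Gm15728 at 99 bp. Best1 and Rab3il1, which encode a chloride channel and an exchange factor for Rab3A, shared one of 45514 at 36 bp. In 15 members 3' ends of more than 1 gene were near the midpoint.

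The strongest single members were at genes of varied function. Slc13a3, a sodium-dependent dicarboxylate transporter, had the highest total (103204, percentile 94.6), with a maximum of 15. Its peak at the start ran from 165468949 to 165475595 on chromosome 2. Spib followed with 93516 and a maximum of 13, and Strn4, a striatin-family scaffold protein, had 82434 at its 3' end. The peak at Strn4 also held listed starts of Prkd2. Miga2, a protein of the mitochondrial outer membrane, had 65335 at its 3' end. Tead3, a TEAD transcription factor of the Hippo pathway, had a peak of 973 bp at its start. Its total of 64637 is that of the whole call, whose maximum of 13 lay outside the peak. The others among the first 10 were Gm33467, Gm52351, Gm3604, Gm52566 and Gm32405, with totals from 65306 to 79814. In 5 of these 10 the maximum of the call lay outside the peak, so the highest signal of the call was not in the stretch at the gene end.

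Of the genes with a member at more than 1 place, Chpf, a chondroitin polymerising factor, and Gm5799 each had 2 peaks that were pieces of 1 call. Ppfia3, a liprin scaffold protein, had separate peaks with totals of 41905 and 24718, each also near an end of another gene. The first was at the 3' ends of Ppfia3 and Hrc, 153 bp apart. The second was at the starts of Ppfia3 and Mtag2, 858 bp apart.

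Genes of the TGF-beta and BMP pathways had a member at shares whose intervals held the 2.35% of all protein-coding genes. Of 31 TGF-beta target genes 0 had one, which allows a share of up to 11.2%. A pSmad3 peak of any kind lay in the gene or within 10 kb for 15 of them (48.4%, 30.2 to 66.9), against 25.5% of all protein-coding genes, which were not matched to them on length. In 14 of those 15 no pSmad3 peak had its midpoint within 1 kb of an end. In the remaining gene, Ltbp2, which encodes a latent TGF-beta binding protein, the peak at the 3' end overlapped a pSmad1/5 peak. Of 44 ligands, receptors, Smads and regulators, Smad3 and Bmp6 had a member (4.55%, 0.555 to 15.5). Of 23 BMP target genes Smad6 had one (4.35%, 0.110 to 21.9).

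The Smad3 peak (chr9:63755384-63761149) had a total of 26482 (percentile 40.6), a maximum of 11 and its midpoint 272 bp outside the start. The Smad6 peak (chr9:64019903-64023777) had a maximum of 14 and its midpoint 245.5 bp inside the gene. Both peaks were far from the nearest pSmad1/5 peak, at 85441 bp for Smad3 and 45731 bp for Smad6. The genes were not free of pSmad1/5 peaks: 2 lay in Smad3 or within 10 kb of it, and 1 in Smad6 or within 10 kb. Bmp6, which encodes a BMP ligand, differed: its peak was at the 3' end (chr13:38497539-38502735, total 25424, maximum 10), and a pSmad1/5 peak began or ended 24 bp away. The peak's midpoint was 177.5 bp from the Bmp6 end and nearer to the 3' end of Txndc5, which lies 48 bp from that of Bmp6. The peak is thus not particular to Bmp6.

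Of the 149 listed genes whose nearest pSmad3 peak had its midpoint over 1 kb from an end, 16 were within 2 kb. Several well-known target genes had a pSmad3 peak whose midpoint fell 1 to 2 kb from an end. For Cdkn1a, a cell cycle inhibitor, it was 1323.5 bp from the 3' end, with a total of 124199 (percentile 95.4), higher than that of any member. For Tgfbi, a secreted matrix protein, it was 1661.5 bp from the 3' end (27843). For Junb, an AP-1 subunit, it was 1955 bp upstream of the start (24291). For Tagln, an actin-binding protein, the distance was 1837.5 bp (23122), and for Col1a1, a chain of type I collagen, it was 1963.5 bp (21715). Of the 18 genes always reported here, Smad6 had a member. Msx1 and Pax9, transcription factors of the dental mesenchyme, had no pSmad3 peak in the gene or within 10 kb. The other 15 were Cdkn1a, Tgfbi, Junb, Tagln, Col1a1, Id1, Smad7, Klf10, Ccn1, Ltbp3, Scx, Gli1, Notch1, Msx2 and Kif7. They had a pSmad3 peak there, but with the midpoint over 1 kb from an end, and at Kif7 it also overlapped a pSmad1/5 peak.

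Counted over the 18 lists of pathway and cell type genes, 14 of 502 distinct genes had a member (2.79%, 1.53 to 4.63), beside 2.35% of all protein-coding genes. With 0 to 2 genes a list, nothing was called particular to a list. In the Notch pathway they were Hey2, a transcriptional repressor (27257, midpoint 510 bp upstream of the start), and Rfng, a glycosyltransferase that modifies Notch. The Rfng peak at the start was 886 bp wide, and its total of 32234 is that of a longer call. Esrp2, an epithelial splicing regulator (31527), came from the dental epithelium list. Nid1, a basement membrane linker protein (22938), came from the matrix list, and Actg1, cytoplasmic gamma actin, from the actin list. The peak counted for Actg1 was 919 bp wide, from a longer call with a total of 23611. Its midpoint was 505.5 bp outside the Actg1 start, which it did not cover. It did cover the nearer start of 0610009L18Rik, on the opposite strand and 183 bp from that of Actg1. The immediate early gene Egr1 had a peak of 23335.

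The other 4 were markers of other tissues: Hba-a1, an alpha globin (21821), Klf1, an erythroid transcription factor (29478), Elavl3, a neuronal RNA-binding protein (63075), and Mylpf, a fast-muscle myosin light chain (35841). The dental mesenchyme (43 genes), Hedgehog (23), Wnt (40), Fgf (29) and cell cycle (41) lists each had 0 genes with a member. Of the 502 genes, 337 had no pSmad3 peak in the gene or within 10 kb. In a further 149 the nearest pSmad3 peak there had its midpoint over 1 kb from an end, at a median distance of 6264 bp.

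**Figure D4:**
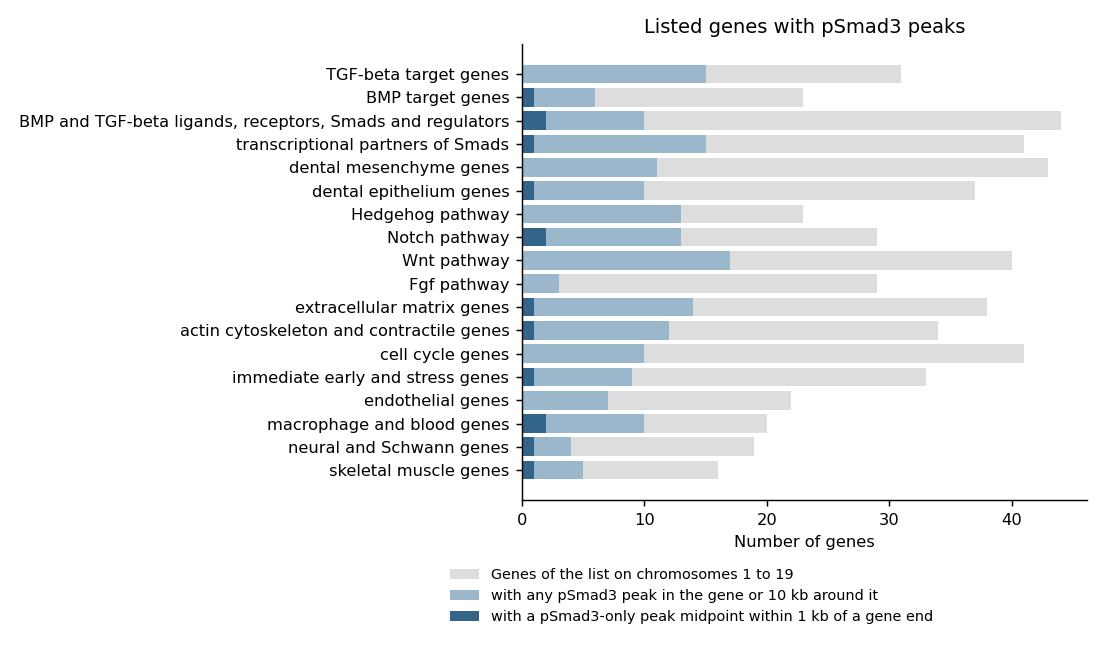
Number of genes in each list: grey bars count all genes on chromosomes 1 to 19, light blue those with any pSmad3 peak in the gene or within 10 kb, and dark blue those with a member. The bars are drawn over each other from 0. Dark bars reach at most 2 genes.

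Members were also counted in gene families. Of 65 Rab genes 3 had a member (4.62%, 0.962 to 12.9). Of 376 solute carrier genes 8 had a member (2.13%). Zinc finger genes named Zfp had 3 of 391 (0.767%, 0.159 to 2.23), and the odorant receptor genes named Olfr had 1 of 1103 (0.0907%, 0.00230 to 0.504). The vomeronasal receptor genes named Vmn had 2 of 351 (0.570%, 0.0691 to 2.04). The upper bounds for the Zfp, Olfr and Vmn genes were below the 2.35% of all protein-coding genes.

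Known starts in the promoter table lay inside 284 members, giving 376 promoters of 332 genes, each 300 bp long (250 before to 50 after the start). Their median G and C content was 58%, against 53% over all 31396 promoters in the table. It was 58% inside pSmad3-only peaks within genes and 54.2% inside those between genes. At gene ends it was 57.2% inside shared peaks and 58.7% inside pSmad1/5-only peaks. CpG-rich promoters were defined by over 50% G and C and a CpG ratio over 0.6. They made up 37.5% (32.6 to 42.6) of the member promoters, against 33.9% of all promoters. The share was 39.3% inside pSmad3-only peaks within genes and 27.1% inside those between genes. At gene ends it was 41.8% inside shared peaks and 50.9% (46.4 to 55.5) inside pSmad1/5-only peaks.

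The short Smad binding element CAGAC, searched on both strands, was in 206 of the 376 (54.8%, 49.6 to 59.9) and in 49.6% of all promoters, at the lower bound of the interval. The palindrome GTCTAGAC, which reads the same on both strands, was in 5 (1.33%, 0.433 to 3.08), against 0.223% of all promoters (70 of 31396). Promoters inside the shared peaks at gene ends held it in 1 of 98 cases (1.02%, 0.0258 to 5.55), those inside the pSmad3-only peaks within genes in 1 of 382 and those inside pSmad1/5-only peaks at gene ends in 1 of 479. Among the member promoters whose window overlapped the stretch of highest signal it was in 1 of 88 (1.14%, 0.0288 to 6.17), an interval that held the share of all promoters. The starts of the 5 palindrome promoters lay 825 to 4691 bp from the nearer edge of that stretch. This distance was also counted for a start inside the stretch, as in the 1 promoter whose window overlapped it. A GC-rich Smad element, GGCGCC, was in 17.0% (13.4 to 21.2), against 12.1% of all promoters and 16.7% of those inside pSmad1/5-only peaks at gene ends.

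Of the other motifs, GGGCGG, the letters of an Sp1 type box, was in 44.9% (39.8 to 50.1), against 36% of all promoters, 44.5% of those inside pSmad3-only peaks within genes and 55.1% of those inside pSmad1/5-only peaks at gene ends. TATAAA, the TATA box, was in 6.65% (4.35 to 9.66), against 13.6% of all, 6.54% inside pSmad3-only peaks within genes and 7.31% inside pSmad1/5-only peaks at gene ends. These departures from all promoters were thus not particular to the members. For 7 motifs the interval held the share of all promoters. TGANTCA (AP-1) was in 7.71%, against 7.84%. CACGTG (E-box) was in 7.98%, against 7.14%. CCGGAAG (ETS type) was in 8.78%, against 9%. The CCAAT box, searched with its complement as ATTGG, was in 38.8%, against 37.3%. TGTGGT (Runx type) was in 15.4%, against 16.7%. CATTCC (TEAD type) was in 15.4%, against 14.6%, and CTTTGA (Tcf/Lef type) was in 16.5%, against 15.9%. A match says only that the letters are present. The members' promoters were richer in G and C than the table's, and the part of base composition in these shares was not tested. Several promoters can belong to 1 gene, so they are not independent.

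**Figure D5:**
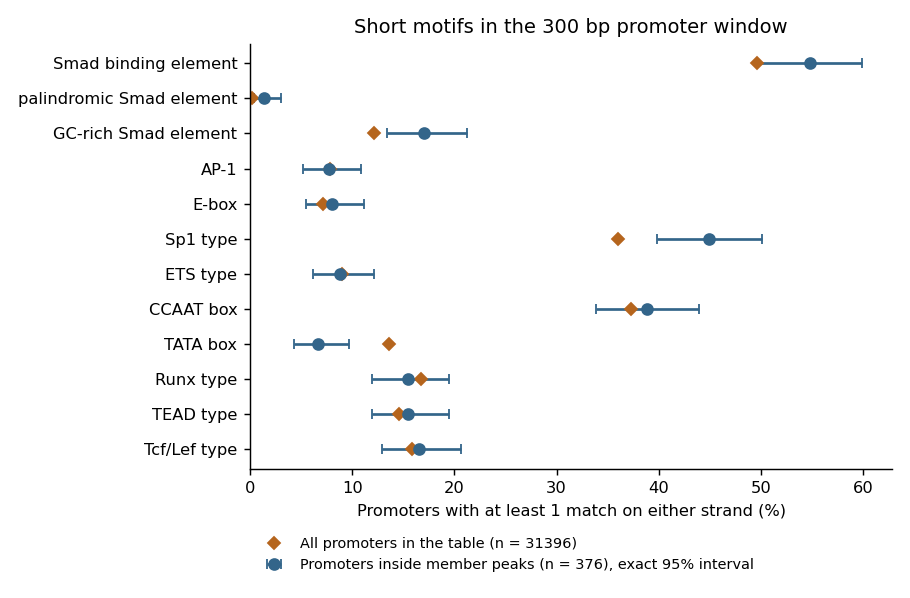
Percentage of promoter windows with at least 1 match on either strand. Points with exact 95% intervals are the 376 promoters inside members and diamonds are all 31396 promoters. The diamond lies clear of the interval for the palindromic and GC-rich Smad elements, the Sp1 type box and the TATA box. For the Smad binding element CAGAC it lies at the lower bound.

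Small RNA genes lay under a few of the peaks. A member overlapped a miRNA gene in 9 cases (1.44%, 0.659 to 2.71), against 0.605% of the pSmad3-only peaks inside genes (0.375 to 0.924) and 0.106% of those between genes. The share was 2.74% (0.751 to 6.87) for the shared peaks at gene ends and 0.884% (0.382 to 1.73) for pSmad1/5-only peaks there, and the interval of the members overlapped both. The member with the most miRNA genes was at the lncRNA gene 6430411K18Rik (chr12:109589482-109594224, total 25228, maximum 13), with its midpoint 315.5 bp inside the start. It covered Mir431, Mir433 and Mir127, miRNAs of the imprinted Dlk1-Dio3 region. Their mature RNAs from RefSeq are given with the seed, bases 2 to 8, in capitals.
mmu-miR-431-5p: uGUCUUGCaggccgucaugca
mmu-miR-431-3p: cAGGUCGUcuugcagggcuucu
mmu-miR-433-5p: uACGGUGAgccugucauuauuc
mmu-miR-433-3p: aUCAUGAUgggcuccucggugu
mmu-miR-127-5p: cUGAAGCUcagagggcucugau
mmu-miR-127-3p: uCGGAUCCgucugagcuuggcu

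No seed was shared between these arms. Whether the peak concerns the lncRNA start or the miRNA genes cannot be told apart at a width of 4743 bp.

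At the distance limit of the rule the values were continuous, while few peaks lay near the limit on the maximum. The members with the highest maximum were Gm41102 at 26, 4933406F09Rik at 22 and Apoa2 at 21, and the nearest pSmad3-only peaks at gene ends above the limit were Gm32110 at 29, Cacna2d2 at 32 and Gm51596 at 33. By distance the last members inside were Slc43a2 at 1000 bp, Gm41102 at 999 bp and Gm39056 at 997.5 bp, and the first outside were Hdac2 at 1003.5 bp, Elk3 at 1004 bp and Vtn at 1005 bp. A limit of a few bp therefore separates peaks with alike values.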

How the data were processed

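The authors deposited 1 peak list for each antibody, with the maximum coverage signal of each call in their own scaling. A score deposited by the authors beside it, called the total signal here, is the coverage summed over the call. Per the submitters' processing notes, Bowtie2, SAMtools, bedtools, SEACR and deepTools were used with build mm10. Calling settings, any control and the way the 2 libraries were joined: not given in the sources used here. Read depth is unknown, and lines with the same total, maximum and region of maximum are pieces of 1 call.

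Overlap, distance and promoter content were computed with Python 3.11.15, pandas 2.3.3 and scipy 1.17.1. Positions are those of mm10, and genes are those of the RefSeq table of GRCm38.p6, the same assembly. Gene entries on unlocalised scaffolds, recognised by positions under 3 Mb, were not used. That table has no strand, which was taken from the RefSeq promoter table for 25748 of 32884 genes. The 3' end was taken as the gene end opposite the start. Percentiles rank total signal within a list. With 1 list per antibody and no value per library, no test was made, and intervals are exact 95% Clopper-Pearson intervals. The classification and motif search were tested on simulated data.

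The members and lists were chosen with earlier results of these data known. Genes named were up to 4 with a member in each list, the nearest genes of the 10 members with the highest total, genes with more than 1 member, up to 4 pairs of starts, the 3 members on each side of each limit and 18 tooth and Smad genes. One gene family is not reported here. The alternatives covered the window, the position used, the limit on the maximum, the gap to pSmad1/5 peaks, calls in pieces, stronger peaks, the genes used and the promoters searched. Families, miRNA genes and genes given with a distance of 1 to 2 kb were chosen after values were seen.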

Additional observations from a re-analysis of the deposited data

How the results depend on the processing

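No paired analysis was possible because the files give 1 list per antibody, with no value for replicate 1 or 2, and leaving out a replicate was not possible for the same reason. Most counts followed the window by construction. With midpoints within 500 bp there were 343 members, 1.25% of protein-coding genes and 7 listed genes. With 2 kb there were 1110, 4.55% and 29. With the maximum at most the list median there were 372, 1.40% and 9, and with totals at or above the list median 257, 0.987% and 6. With no pSmad1/5 peak within 5 kb, 1.89% of genes and 9 listed genes remained.

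The share nearest a start was 55.5% (51.2 to 59.8) by the position of the maximum and 45.2% (38.2 to 52.4) among the stronger totals, so its side of 50% was not stable. The position of the maximum gave 643 members, of which 305 were members by midpoint, 48.7% of those. Requiring a second match left 19.9% of member promoters with CAGAC and 0% with the palindrome, of 376. Among promoters of protein-coding genes the palindrome was in 3 of 253 (1.19%, 0.245 to 3.43), against 0.239%, and the GC-rich Smad element in 19.8% (15 to 25.2), against 15.8%. Of 85 recomputed values, 39 stayed within 1.5 times the main count or within the main interval. Peaks of several kb and an unknown depth limit how closely a call can be placed on a gene end.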
